A study of Homo sapiens with 4 samples.

Results

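Interferon-stimulated genes are the transcripts that cells raise when interferon reaches its receptors, and 44 of them, out of 62649 gene identifiers in the count files, were read in A375, a human melanoma cell line with an activating BRAF mutation. The members were chosen by symbol, with earlier results of these data known. They span the family, from its transcription factors to its antiviral effectors, and each matched 1 identifier. There were 2 libraries of vemurafenib-resistant A375 cells and 2 of parental A375 cells as the control, vemurafenib being a drug that blocks the mutant kinase. Resistance had been raised with weekly doublings of vemurafenib from 0.1 to 6.4 µM, and both groups were grown in the same serum-supplemented medium. The protocols also describe exposure to sorafenib, pioglitazone or vehicle and a harvest after drug treatment, but the labels tie none of these, nor vemurafenib at harvest, to a library. They do not say how many clones the resistant line holds or whether replicates were separate cultures, so each p-value rests on a spread that may be technical. RNA was polyA-selected, and read counts per gene were deposited. No library was labelled as treated with interferon.

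Type I interferons bind the receptor pair IFNAR1 and IFNAR2, whose kinases JAK1 and TYK2 phosphorylate STAT proteins, STAT2 among them. These join IRF9 and bind the interferon-stimulated response element in target promoters, while interferon gamma acts mainly through another element, GAS. In melanoma and other tumour lines the same genes can also be held at a low level without added interferon, and they are followed as a readout of nucleic acid sensing inside the cell.

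Counts assigned to genes totalled 68022689 and 85197524 in resistant replicates 1 and 2, and 72290468 and 87178097 in control replicates 1 and 2. In control replicate 1 all counts were even numbers (0 odd values), and the source of this was not tested. Levels are given as TMM-scaled CPM (counts scaled to a common library size), on which the limit of detection, 3 counts, lay at 0.0422 and 0.0363 in the resistant libraries, against 0.0419 and 0.0346 in the controls, for counting error only. As control replicate 1 held even counts alone, 3 counts could not occur there and its limit is nominal. The melanoma markers SOX10 (704 to 1149 CPM) and ERBB3 (304 to 432 CPM) were abundant in all 4 libraries, whereas the pigment genes MLANA and PMEL lay between 1.08 and 2.34 CPM and TYR had at most 18 counts. With S100B, S100A1 and MITF, the 8 melanoma markers summed to 1419 and 1284 CPM in resistant libraries, against 1066 and 1633 CPM in controls. SOX10 and ERBB3 made up most of each sum. Of 10 leukocyte markers none reached 1 CPM, and their sum was 2.39 and 1.83 CPM in resistant libraries, against 1.37 and 3.19 CPM in controls, with CD3E at 0 counts in both resistant libraries and in control replicate 1. Other genes cover 85.6% of the exonic bases of CD68 and 34.7% of those of LYZ, so their low counts are uncertain. The 6 fibroblast markers summed to 13.2 and 11.6 CPM in resistant libraries, against 15.3 and 11.9 CPM in controls. The 5 keratinocyte markers summed to 58.7 and 89.7 CPM in resistant libraries, against 49.2 and 63.0 CPM in controls, and most of each sum was KRT10. KRT14, a basal keratin gene, fell to 0.310 and 0.315 CPM in resistant libraries, against 1.62 and 2.08 CPM in controls (adjusted p = 0.0355 in edgeR). Of the 4 keratinocyte markers tested it was the 1 with a negative fold change, and 3 were positive. The part of these other cell types in the members' values was not tested.

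Many members carry the core letters of the response element near their start. The response element core was searched as GAAA, any 2 bases and GAAA again, and the GAS core as TTCNNNGAA, on both strands (a response element match on the opposite strand reads TTTC, any 2 bases and TTTC, and the GAS core is its own reverse complement) and with overlapping matches counted, from 250 bases before to 50 bases after each annotated start in RefSeq promoters (GRCh38.p14). A promoter was found by symbol for 34 of the 44 members, and 21 of these held the response element core, 13 of them more than once, and 9 held the GAS core. Among all 27305 promoters, 3.65% held the first core and 7.88% the second. With promoters for 77.3% of members, under the 80% set as the minimum for checking a property of a list, the comparison of shares is void and the matches stand as a description of single genes. The 6 members with a response element match and, among those, the highest CPM are shown for the 150 bases up to the start, 5′ to 3′ on the strand of the gene, with matches to the response element core in capitals. IFI44L and IFIT1 follow because the results turn on them, a choice made after their values were seen.
IFITM3, chr11:320861-321010, minus strand: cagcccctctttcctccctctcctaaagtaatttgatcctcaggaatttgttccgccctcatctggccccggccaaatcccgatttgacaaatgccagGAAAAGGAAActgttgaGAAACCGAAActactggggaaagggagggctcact
ISG20, chr15:88638866-88639015, plus strand: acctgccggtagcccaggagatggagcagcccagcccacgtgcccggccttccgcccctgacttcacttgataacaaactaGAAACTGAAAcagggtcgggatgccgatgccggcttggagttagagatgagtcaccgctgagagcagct
OAS3, chr12:112938324-112938473, plus strand: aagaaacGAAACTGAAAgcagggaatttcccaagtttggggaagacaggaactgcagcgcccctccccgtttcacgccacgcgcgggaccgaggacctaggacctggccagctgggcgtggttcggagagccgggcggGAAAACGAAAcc
PARP14, chr3:122680689-122680838, plus strand: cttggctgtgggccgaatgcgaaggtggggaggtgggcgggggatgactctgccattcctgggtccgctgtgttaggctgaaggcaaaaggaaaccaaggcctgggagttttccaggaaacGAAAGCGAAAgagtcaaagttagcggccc
IFI44, chr1:78649639-78649788, plus strand: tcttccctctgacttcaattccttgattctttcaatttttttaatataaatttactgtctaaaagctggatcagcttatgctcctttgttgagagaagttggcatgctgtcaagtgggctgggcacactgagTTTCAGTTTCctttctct
IFIT5, chr10:89414418-89414567, plus strand: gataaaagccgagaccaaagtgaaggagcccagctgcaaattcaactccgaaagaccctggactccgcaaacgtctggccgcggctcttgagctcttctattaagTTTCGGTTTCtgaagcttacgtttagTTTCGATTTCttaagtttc
IFI44L, chr1:78620298-78620447, plus strand: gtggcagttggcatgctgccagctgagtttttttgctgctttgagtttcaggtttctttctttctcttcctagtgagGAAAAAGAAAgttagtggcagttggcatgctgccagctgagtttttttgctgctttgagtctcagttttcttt
IFIT1, chr10:89392473-89392622, plus strand: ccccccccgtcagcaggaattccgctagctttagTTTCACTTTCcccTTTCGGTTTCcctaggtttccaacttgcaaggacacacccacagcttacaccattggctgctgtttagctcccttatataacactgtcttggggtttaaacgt

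**Figure D1:**
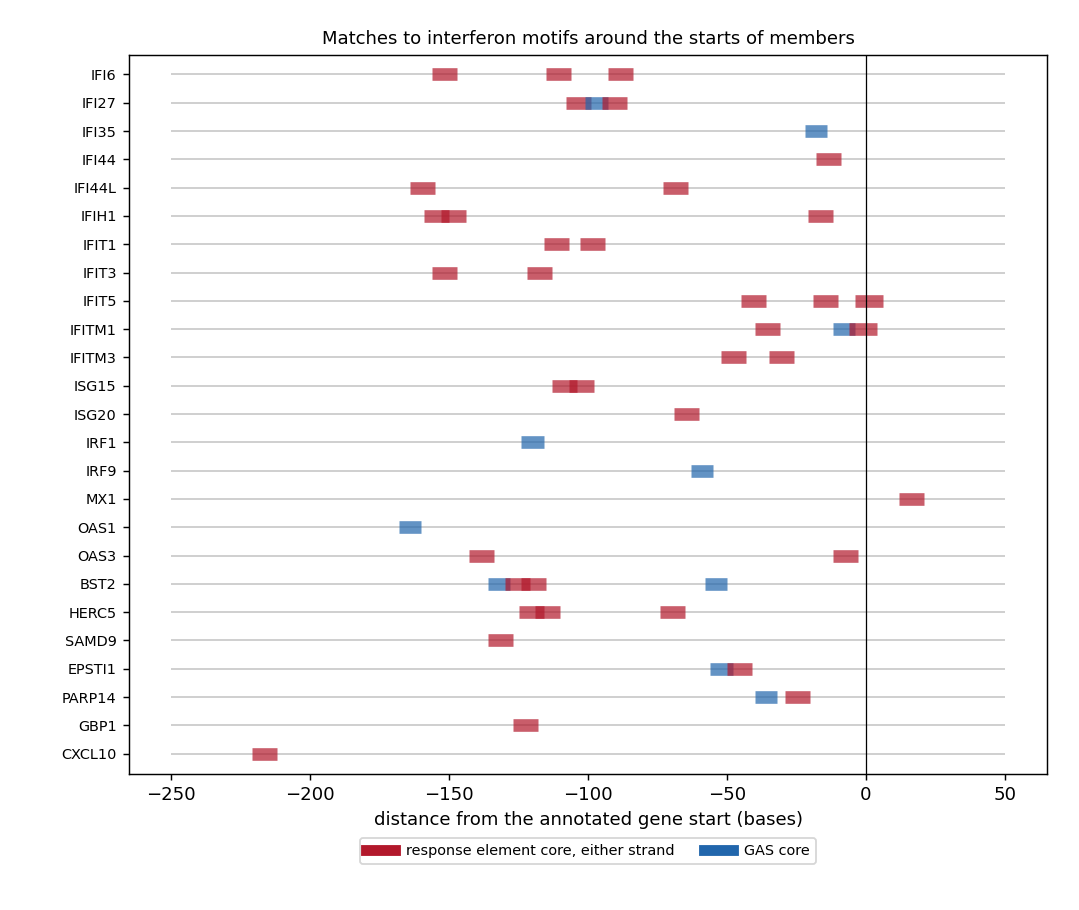
Matches to the response element core (red) and to the GAS core (blue) for the members with a match, by distance in bases from the annotated start, with members down the page. Most red blocks lie before the start, as does most of the window searched, 13 promoters hold more than 1, and the MX1 match lies after the start.

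Only the window around each start was searched, so every match had to lie near a start, and the positions are given as a description. In IFITM3 the matches lie 52 and 35 bases before the start, in ISG20 1 match lies at 69 bases, and in IFIT1 a pair begins 116 and 103 bases before it. IFI44L has a second match that begins 164 bases before the start, outside the stretch printed, and the IFIT5 match that spans the start is cut off there. In ISG15, IFIH1, BST2 and HERC5 neighbouring matches overlap each other, and a GAS core overlaps a response element core in IFI27, IFITM1, BST2 and EPSTI1. The promoters of IRF1, IRF9, IFI35 and OAS1 held the GAS core and no response element core in this window.

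In resistant against parental cells no member passed the test. Of 42 members tested, 0 were called in either direction by edgeR's quasi-likelihood test at a Benjamini-Hochberg threshold of 0.05 over the whole table, where 0.577% of all 24961 genes were called higher, 0.513% lower and 1.09% in either direction. At an unadjusted p under 0.05, 1 member, ISG20, was higher and 7 (IFI44L, IFIT5, EPSTI1, IFI44, GBP2, IFIT1 and OAS2) were lower (6.14% and 7.32% of all genes tested, 13.5% either way), and DESeq2 called ISG20 higher and IFI44L lower (2.49% and 2.80% of all genes). EPSTI1 passed the filter on low counts through the controls alone and so had to differ. A negative fold change was found in 35 of the 42, and the middle log2 fold change was -0.27 (quartiles -0.60 and -0.12), against a median of 0.006 and 49.5% negative over all genes tested. Both resistant libraries lay below both controls in 20 members and above both in 3, against 22.2% and 22.4% of all genes tested and 44.6% either way. Without EPSTI1, 34 of 41 members were negative, 19 had both resistant libraries below both controls and 6 were lower at the unadjusted threshold. The members were chosen with earlier results of these data known, so these shares describe the list and are not an unbiased comparison. In these bulk libraries, fewer cells that express a gene and less RNA per cell cannot be told apart.

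The 2 controls did not lie alike. Control replicate 1 had the highest level of the 4 libraries in 30 of 42 tested members (71.4%), against 30.9% of all genes tested and 34% of those that reached 1 CPM in at least 1 library. Between the 2 controls, 32 members were higher in replicate 1, with a median log2 difference of 0.35, against -0.01 over all genes. Between the 2 resistant libraries the members were evenly split, 21 of 42 each way, with a median difference of -0.0084. Control replicate 1 was at least 1.5 times control replicate 2 in 14 members (33.3%, against 12.7% of all genes tested), and the reverse held in ISG20 alone (2.38%, against 19.2% of all genes tested). Without control replicate 1 the median log2 fold change of the members was -0.087 and 27 of 42 were negative. Without control replicate 2 it was -0.46, with 38 negative. With either resistant library left out it was -0.38 and -0.24. A difference between 2 single libraries has no replicate check, and its source was not tested.

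**Figure D2:**
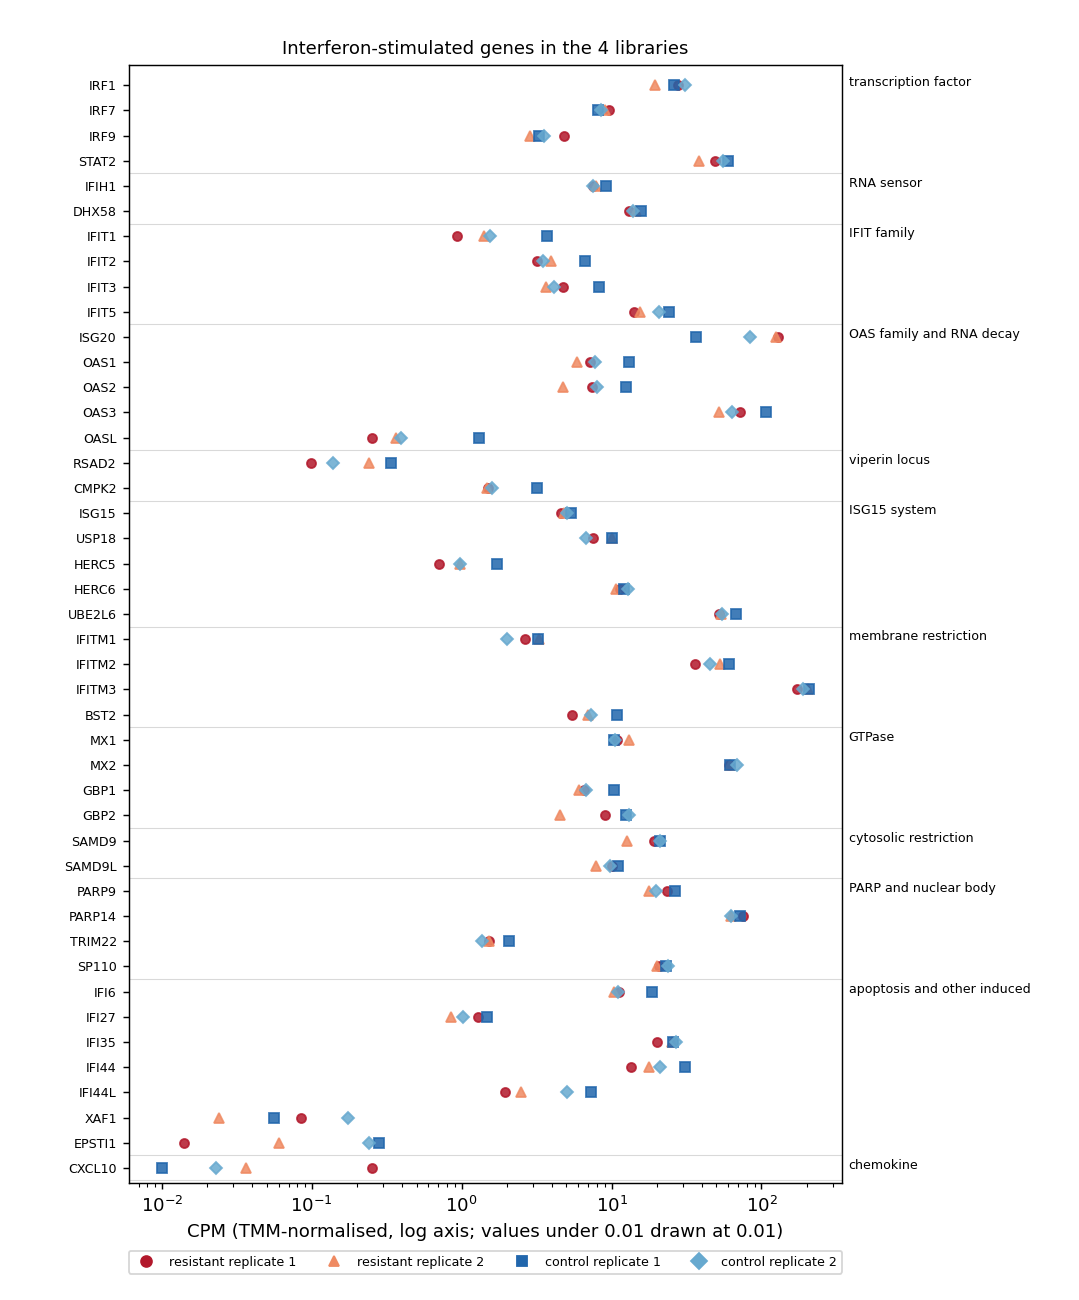
CPM (log axis) of the 44 members in resistant replicates 1 and 2 (red and orange) and control replicates 1 and 2 (dark and light blue), grouped by role. The dark blue squares of control replicate 1 stand to the right of the other 3 libraries in IFIT1, IFIT2, IFIT3, OASL, CMPK2 and IFI6, while IFI44L has both controls to the right and ISG20 both resistant libraries.

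**Figure D3:**
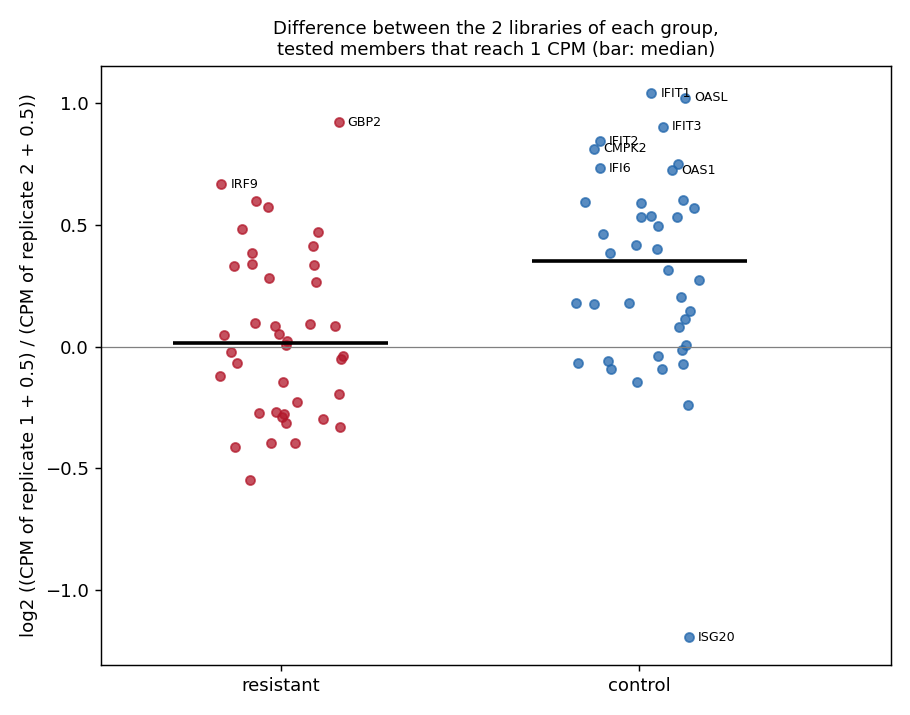
The log2 ratio of replicate 1 to replicate 2, with 0.5 CPM added to each, in resistant and in control libraries, with 1 point for each of the 40 tested members that reach 1 CPM and a bar at the median. The resistant points centre near 0 (median 0.014) and the control points lie mostly above it (median 0.35).

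Levels set the scale for these differences. Of the 44 members, 40 reached 1 CPM in at least 1 library, 26 reached 10 CPM, 8 reached 50 CPM and 3 (IFITM3, ISG20 and OAS3) reached 100 CPM. Per exonic length, in TPM (length-scaled counts, summing to the same total in each library) over the 2 libraries of a group, IFITM3 averaged 243 TPM in resistant and 251 TPM in control cells, ahead of IFITM2 (101 and 119 TPM) and UBE2L6 (94.8 and 106 TPM). ISG20 averaged 65.2 TPM in resistant and 30.5 TPM in control cells per length. At the lower end of the tested members, TRIM22, OASL, RSAD2 and EPSTI1 averaged under 0.5 TPM in each group.

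Among the transcription factors of the pathway, 2 had groups that overlapped. STAT2, which carries the activation domain of the interferon-activated complex, had 48.7 and 38.6 CPM in resistant libraries, against 60.2 and 55.6 CPM in controls. Both resistant libraries lay below both controls, with a fitted log2 change of -0.41 ± 0.18 (SE, adjusted p = 0.392 in edgeR). IRF9, the DNA-binding partner of that complex, had 4.81 and 2.84 CPM in resistant libraries, against 3.30 and 3.55 CPM in controls, so that the groups overlapped. IRF7, which amplifies type I interferon production, had 9.61 and 9.04 CPM in resistant libraries, against 8.13 and 8.56 CPM in controls. It was 1 of the 3 tested members with both resistant libraries on top, by a fitted log2 change of 0.16 ± 0.22 (adjusted p = 0.831 in edgeR). IRF1, an early factor of the interferon gamma response, had 27.5 and 19.6 CPM in resistant libraries, against 26.0 and 30.8 CPM in controls, and the groups overlapped. Exons of IRF9 and IRF1 share 27.2% and 22.9% of their bases with other genes, and reads there can be dropped or mixed with those of a neighbour.

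The RNA sensor groups overlapped. IFIH1, which encodes the sensor of long double-stranded RNA known as MDA5, had 7.53 and 7.81 CPM in resistant libraries, against 9.17 and 7.49 CPM in controls. DHX58, which encodes its relative LGP2, had 13.1 and 14.5 CPM in resistant libraries, against 15.7 and 13.9 CPM in controls. Both had log2 fold changes within 0.12 of 0 with edgeR adjusted p = 0.894 each.

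The IFIT genes, neighbours on chromosome 10 whose proteins bind foreign RNA, had control replicate 1 as the highest library in all 4. IFIT1 (ENSG00000185745.10, chromosome 10, 89392546 to 89406487, GRCh38) had 0.929 and 1.40 CPM in resistant libraries, against 3.72 and 1.55 CPM in controls. IFIT2 had 3.18 and 3.94 CPM in resistant libraries, against 6.68 and 3.50 CPM in controls. IFIT3 had 4.74 and 3.65 CPM in resistant libraries, against 8.19 and 4.15 CPM in controls. In these 3 genes control replicate 2 lay at or next to the level of the resistant libraries, and control replicate 1 was 2.40, 1.91 and 1.98 times control replicate 2. IFIT1 had a fitted log2 change of -1.17 ± 0.47 (adjusted p = 0.335 in edgeR), and this was -0.41 without control replicate 1. IFIT5 had 14.1 and 15.4 CPM in resistant libraries, against 24.1 and 20.8 CPM in controls. Here the controls lay together above both resistant libraries, at a fitted log2 change of -0.61 ± 0.19 (adjusted p = 0.207 in edgeR) that ranged from -0.72 to -0.50 with 1 library left out.

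The OAS genes make the second messenger that activates RNase L, and they too were highest in control replicate 1. OAS1 had 7.20 and 5.84 CPM in resistant libraries, against 13.2 and 7.76 CPM in controls. OAS2 had 7.43 and 4.74 CPM in resistant libraries, against 12.4 and 8.002 CPM in controls. OAS3, the most abundant of them, had 72.2 and 52.0 CPM in resistant libraries, against 108 and 63.9 CPM in controls. The groups were apart in OAS1 and OAS2 and overlapped in OAS3, where control replicate 2 lay between the resistant libraries. OASL, which lacks the enzyme activity and acts on RNA sensing, had 0.253 and 0.363 CPM in resistant libraries, against 1.31 and 0.393 CPM in controls. Its fitted log2 change of -1.45 ± 0.64 (adjusted p = 0.381 in edgeR) was -0.34 without control replicate 1. For OAS1, OAS2 and OAS3 the log2 fold changes were -0.68, -0.75 and -0.47, with edgeR adjusted p from 0.368 to 0.535.

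ISG20, a 3′ to 5′ exonuclease of RNA, had the highest fold change of the tested members. ISG20 (chromosome 15, 88635670 to 88656483, GRCh38) had 129 and 125 CPM in resistant libraries, against 36.5 and 84.3 CPM in controls. Both resistant libraries lay together above both controls, and the controls differed 2.31-fold with replicate 1 the lower. The log2 fold change was 1.07 ± 0.34 (adjusted p = 0.215 in edgeR), and 0.59 without control replicate 1 against 1.79 without control replicate 2. DESeq2 gave an adjusted p of 0.0361. No exonic base of ISG20 overlaps another gene.

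The viperin locus on chromosome 2 was expressed at a low level. CMPK2, a mitochondrial nucleotide kinase gene, had 1.51 and 1.48 CPM in resistant libraries, against 3.16 and 1.58 CPM in controls. RSAD2, the gene of viperin itself, stayed under 1 CPM, at 7 and 20 counts in resistant libraries, against 24 and 12 counts in controls. Control replicate 1 was the highest library in both.

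The ISG15 system attaches a ubiquitin-like protein to others and removes it. ISG15 had 4.60 and 4.85 CPM in resistant libraries, against 5.34 and 5.02 CPM in controls. UBE2L6, its conjugating enzyme, had 52.3 and 53.8 CPM in resistant libraries, against 67.7 and 54.4 CPM in controls. Both genes had resistant libraries below the controls, at log2 fold changes of -0.13 and -0.20 (edgeR adjusted p = 0.886 and 0.704). HERC5, the main ligase for ISG15 in human cells, had 0.703 and 0.980 CPM in resistant libraries, against 1.73 and 0.982 CPM in controls. Its relative HERC6 had 11.4 and 10.7 CPM in resistant libraries, against 12.1 and 13.0 CPM in controls. In HERC5 control replicate 2 was level with resistant replicate 2, while in HERC6 the controls lay side by side. USP18, which removes ISG15 and restrains the receptor, had 7.50 and 10.0 CPM in resistant libraries, against 10.1 and 6.80 CPM in controls, with the groups overlapping.

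Membrane restriction factors held the most abundant member. IFITM3, which blocks virus entry at endosomes, had 174 and 203 CPM in resistant libraries, against 208 and 188 CPM in controls. IFITM2 had 35.9 and 52.8 CPM in resistant libraries, against 60.9 and 45.6 CPM in controls. IFITM1 had 2.63 and 3.29 CPM in resistant libraries, against 3.24 and 2.02 CPM in controls. The groups overlapped in all 3, and the log2 fold changes were -0.073, -0.26 and 0.17 with edgeR adjusted p of 0.715 or more. The IFITM genes are near copies of each other on chromosome 11, so reads that map to more than 1 of them were left out by the counting, and 31.6% of the exonic bases of IFITM1 and 16.3% of those of IFITM3 overlap other genes; their levels are uncertain for that reason. BST2, the gene of tetherin, which holds budding virions at the cell surface, had 5.49 and 6.94 CPM in resistant libraries, against 10.8 and 7.31 CPM in controls. Its groups did not overlap, though control replicate 2 was close to resistant replicate 2 (log2 fold change -0.54 ± 0.28, edgeR adjusted p = 0.469).

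Among the GTPases, the MX genes lay near their control levels and GBP2 had its control libraries on top. MX1 had 10.8 and 13.2 CPM in resistant libraries, against 10.4 and 10.5 CPM in controls. Its neighbour on chromosome 21, MX2, had 61.0 and 62.0 CPM in resistant libraries, against 61.7 and 68.3 CPM in controls. MX1, the classical marker of type I interferon, was thus the third tested member with both resistant libraries on top, at a fitted log2 change of 0.20 ± 0.22 (adjusted p = 0.775 in edgeR). GBP2, a guanylate-binding protein gene that interferon gamma induces strongly, had 9.09 and 4.56 CPM in resistant libraries, against 12.5 and 13.0 CPM in controls. The 2 controls lay together and the resistant libraries differed 1.99-fold, and the log2 fold change was -0.90 ± 0.33 (adjusted p = 0.281 in edgeR), from -1.48 to -0.49 with 1 library left out. GBP1 had 6.50 and 6.11 CPM in resistant libraries, against 10.4 and 6.72 CPM in controls, the pattern of a single high control. The chemokine gene CXCL10, another interferon gamma target, was not tested at 18 and 3 counts in resistant libraries, against 0 and 2 counts in controls.

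SAMD9 and SAMD9L, neighbours on chromosome 7 that restrict poxviruses, were expressed in all 4 libraries. SAMD9 had 19.2 and 12.7 CPM in resistant libraries, against 21.0 and 20.9 CPM in controls. SAMD9L had 10.0 and 7.83 CPM in resistant libraries, against 11.04 and 9.69 CPM in controls. The SAMD9 groups did not overlap and those of SAMD9L did, with log2 fold changes of -0.40 and -0.22 (edgeR adjusted p = 0.545 and 0.773).

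The ADP-ribosyltransferase and nuclear body genes mostly overlapped between groups. PARP14 had 75.2 and 62.5 CPM in resistant libraries, against 71.4 and 63.0 CPM in controls. PARP9, which encodes a partner of the ubiquitin ligase DTX3L, had 23.5 and 17.9 CPM in resistant libraries, against 26.3 and 19.8 CPM in controls. SP110, a nuclear body component, had 20.7 and 20.0 CPM in resistant libraries, against 23.2 and 23.9 CPM in controls. TRIM22, a ubiquitin ligase gene, had 1.53 and 1.52 CPM in resistant libraries, against 2.07 and 1.36 CPM in controls. SP110 alone of these had separate groups, at a fitted log2 change of -0.21 ± 0.18 (adjusted p = 0.693 in edgeR).

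IFI44L and IFI44, neighbours on chromosome 1, had their controls on top. IFI44L (ENSG00000137959.17, chromosome 1, 78619902 to 78646145, GRCh38) had 1.94 and 2.48 CPM in resistant libraries, against 7.29 and 5.03 CPM in controls. IFI44 had 13.4 and 17.8 CPM in resistant libraries, against 30.7 and 21.0 CPM in controls. In both genes the 2 controls lay above the 2 resistant libraries. IFI44L averaged 2.21 ± 0.381 CPM in resistant and 6.16 ± 1.60 CPM in control cells (SD, n = 2 each), a fitted log2 change of -1.48 ± 0.31 (SE) with an edgeR adjusted p of 0.0772, the smallest of any member. Leaving out control replicate 1 gave a log2 change of -1.19, and leaving out control replicate 2 gave -1.73, each against a single control. DESeq2 gave it an adjusted p of 5.81e-04. IFI44 had a fitted log2 change of -0.72 ± 0.25 (adjusted p = 0.252 in edgeR).

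The other induced genes covered a wide range of levels. IFI6, a mitochondrial protein gene that restrains apoptosis, had 11.2 and 10.4 CPM in resistant libraries, against 18.6 and 11.02 CPM in controls. IFI27 had 1.29 and 0.847 CPM in resistant libraries, against 1.48 and 1.02 CPM in controls. IFI35 had 20.1 and 25.4 CPM in resistant libraries, against 25.5 and 26.9 CPM in controls. Control replicate 1 stood alone above the others in IFI6, and in IFI35 the higher resistant library lay just under the controls. EPSTI1 had 1 and 5 counts in resistant libraries, against 20 and 21 counts in controls, with an edgeR adjusted p of 0.233. XAF1, which encodes a partner of the apoptosis inhibitor XIAP, was not tested at 6 and 2 counts in resistant libraries, against 4 and 15 counts in controls, and 38.3% of its exonic bases lie over a gene on the opposite strand.

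**Figure D4:**
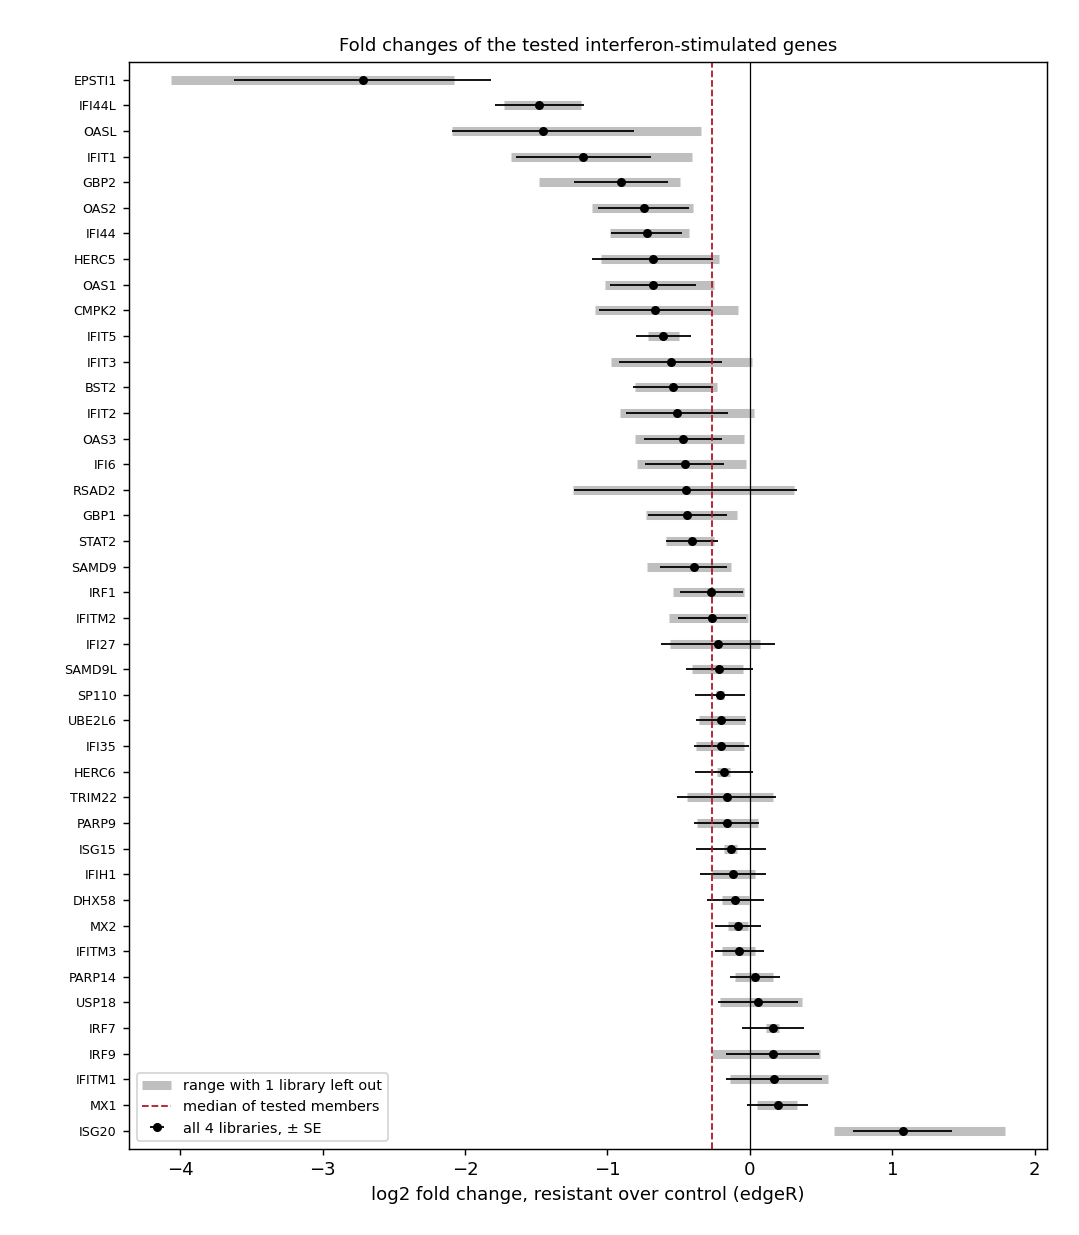
Fitted log2 fold changes, resistant over control, of the 42 tested members with their SE (points and lines) and the range of the fit with 1 library left out (grey bars), ordered from the lowest. The dashed line marks the members' median of -0.27, ISG20 stands alone on the right at 1.07, and the grey bars of 12 members cross 0.

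Other genes of the pathway gave no call either. A set of 93 genes of interferon production, signalling, restraint and response, none of them a member, gave 68 tested genes, of which 0 were higher and 0 lower in edgeR, 4 higher and 7 lower at an unadjusted p under 0.05 (6.14% and 7.32% of all genes tested), and 1 higher and 4 lower in DESeq2 (2.49% and 2.80% of all genes). Their median log2 fold change was -0.094. By list, 6 receptor genes, 8 JAK and STAT genes, 13 genes of the induction pathway, 9 negative regulators, 33 further induced genes and 1 ligand gene were tested, and 2 of the genes stood in 2 lists.

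Transcripts of interferons themselves were close to the floor. Of 21 ligand genes 20 were not tested, with at most 12 counts in any library, and IFNB1 had 6 and 4 counts in resistant libraries, against 8 and 1 counts in controls. IFNE, the interferon of epithelia and the 1 ligand gene tested, had 1.08 and 0.387 CPM in resistant libraries, against 0.559 and 2.29 CPM in controls, with the groups overlapping. The receptor genes IFNAR1 (43.2 and 36.9 CPM in resistant libraries, against 33.9 and 43.3 CPM in controls) and IFNAR2 (4.47 and 4.15 CPM, against 2.93 and 3.58 CPM) were present. IFNGR1, a chain of the interferon gamma receptor, had 23.7 and 28.6 CPM in resistant libraries, against 16.7 and 18.9 CPM in controls, at a fitted log2 change of 0.56 ± 0.20 (adjusted p = 0.264 in edgeR). Its groups were apart in the direction opposite to most members.

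The receptor kinases were abundant. JAK1 had 92.5 and 92.3 CPM in resistant libraries, against 107 and 103 CPM in controls. TYK2 had 142 and 140 CPM in resistant libraries, against 136 and 130 CPM in controls. Both resistant libraries lay below both controls in JAK1 and above both in TYK2, at log2 fold changes of -0.18 and 0.082 (edgeR adjusted p = 0.695 and 0.891).

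Of the nucleic acid sensing genes, MAVS, the adaptor of the RNA sensors, had 251 and 221 CPM in resistant libraries, against 287 and 242 CPM in controls. STING1, the adaptor of DNA sensing, had 52.5 and 62.6 CPM in resistant libraries, against 60.7 and 49.1 CPM in controls. The groups overlapped in both. Of the sensors, RIGI had 1.10 and 0.665 CPM in resistant libraries, against 1.54 and 1.18 CPM in controls, and CGAS had 5 and 4 counts in resistant libraries, against 8 and 15 counts in controls. IRF3, the factor that both adaptors activate, had 46.7 and 43.4 CPM in resistant libraries, against 58.9 and 57.7 CPM in controls (log2 fold change -0.37 ± 0.16, edgeR adjusted p = 0.375). Other genes cover 43.2% of the exonic bases of RIGI and 27.7% of those of IFNAR2, so their counts are uncertain.

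SOCS1, a feedback inhibitor of JAK kinases, had 1.63 and 2.76 CPM in resistant libraries, against 4.25 and 1.63 CPM in controls. Its relative SOCS3 had 40.2 and 40.8 CPM in resistant libraries, against 73.2 and 41.0 CPM in controls. Both repeated the single high library of the IFIT and OAS genes. SOCS3 and the genes in the next sentences were named after their values were seen.

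The 5 genes that DESeq2 called were PARP12, MYD88, APOL1, DDX60L and APOBEC3G. PARP12, an ADP-ribosyltransferase gene that interferon induces, had 61.2 and 58.5 CPM in resistant libraries, against 29.2 and 35.3 CPM in controls (log2 fold change 0.89 ± 0.18, edgeR adjusted p = 0.0662). APOL1 had 2.60 and 1.78 CPM in resistant libraries, against 7.96 and 4.91 CPM in controls (log2 fold change -1.55 ± 0.35, edgeR adjusted p = 0.0908). MYD88, the adaptor of Toll-like receptors, had 20.1 and 13.1 CPM in resistant libraries, against 36.4 and 31.3 CPM in controls (log2 fold change -1.03 ± 0.24, edgeR adjusted p = 0.103). In each of the 5 the groups were apart (44.6% of all genes tested), but they were picked by a test on these same libraries. DDX60L and APOBEC3G had log2 fold changes of -0.96 and -0.70 with edgeR adjusted p = 0.129 and 0.155.

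**Figure D5:**
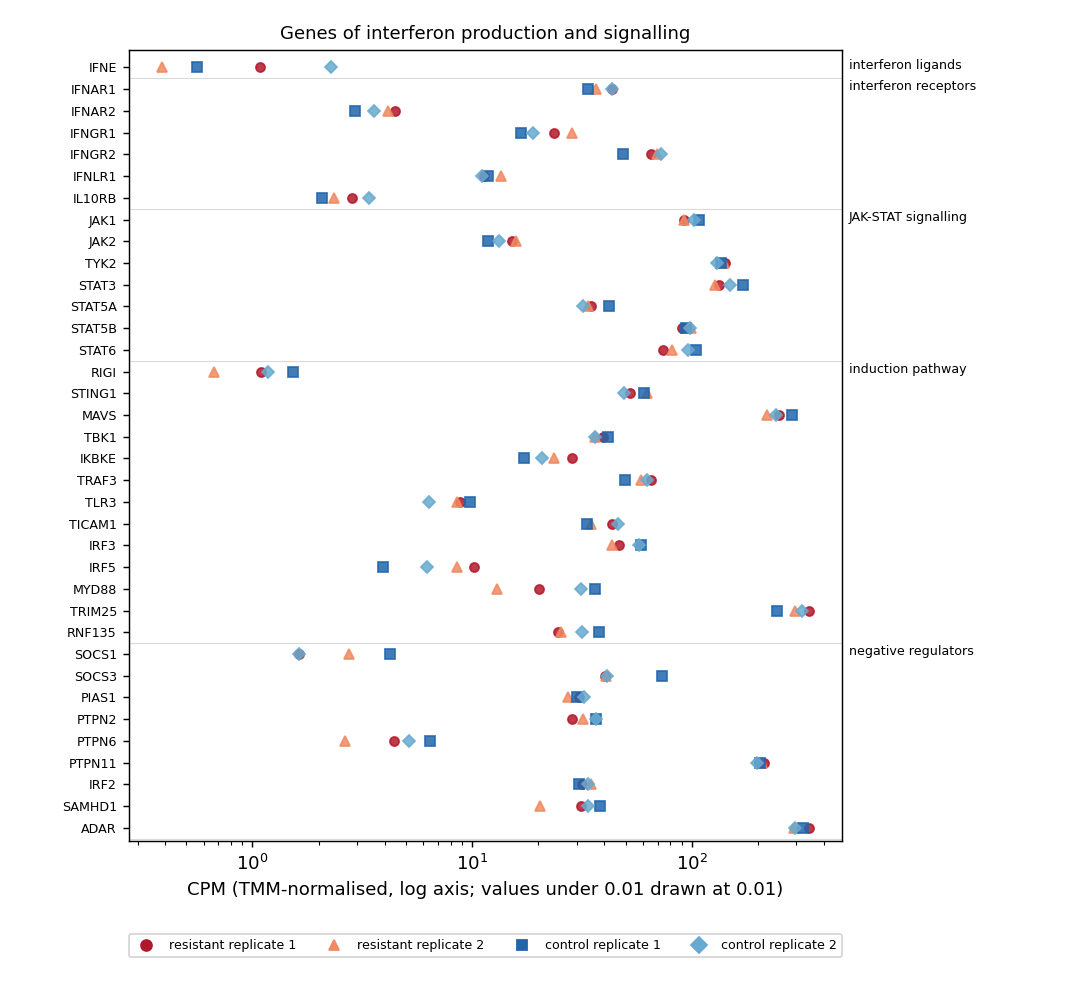
CPM (log axis) of tested ligand, receptor, kinase, STAT, induction and restraint genes in the same 4 libraries and colours as the members. IFNAR1, STING1 and MAVS overlap between groups, IFNGR1 has both resistant libraries to the right, SOCS1 and SOCS3 have control replicate 1 (dark blue) to the right, and MYD88 has both controls to the right.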

How the data were processed

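Raw counts per gene were deposited for 4 libraries, 1 file each. Per the file headers, the authors made these counts with featureCounts 2.0.0 against GENCODE release 42, giving an annotation and an output file as the options, on duplicate-marked alignments. Libraries were strand-specific and paired-end per the labels, yet the program's defaults ignore strand, count each mate singly and drop multi-mapping reads and those that touch more than 1 gene. STAR, DESeq2 and GRCh38 are named in the submitters' processing notes. Symbols matched 62625 of 62649 identifiers. A headerless table of gene symbols and values names no comparison and was not used here.

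Genes were filtered with filterByExpr at its defaults (24961 kept), TMM-scaled and tested with edgeR's quasi-likelihood test on group (edgeR 4.0.16 with limma 3.58.1 under R 4.3.3), two-sided, Benjamini-Hochberg adjusted over all genes, with a threshold of 0.05; the step was tested on simulated data. CPM use the TMM factors, TPM the exonic length in the files, and SE is the size of the log2 fold change over the square root of F. The common dispersion corresponded to a biological coefficient of variation of 25.5%. Alternatives were DESeq2 1.42.0, RLE factors, library totals, no filter, control replicate 1 halved, each library left out and a replicate block. The replicate numbers were not taken as pairs. Members and lists were chosen with earlier results of these data known. Values per library are given for members that reach 1 CPM; of other genes, those past the test and a fixed set of 13 were to be named (1 of these is not reported here), and further ones are marked as picked later.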

Additional observations from a re-analysis of the deposited data

How the results depend on the processing

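No member passed in the fit of all 4 libraries. Without the filter on low counts every gene with a count was tested, and 905 were called higher and 961 lower. Among them were 1 member higher (ISG20) and 2 lower (IFI44L and GBP2), and 1 pathway gene higher and 5 lower. No share over that larger set was taken, so these counts are not read as a result about the members. DESeq2 called 621 and 700 genes (2.49% and 2.80% of all genes tested), 1 and 1 members, and 1 and 4 pathway genes. With 1 library left out, the whole table gave between 0 and 1089 higher and between 2 and 988 lower genes, fewest without resistant replicate 1 and most without control replicate 2. Members called higher ranged from 0 to 1 and lower from 0 to 5, and pathway genes from 0 to 2 and from 0 to 4, all of the upper values without control replicate 2. The 5 members lower in that fit were IFI44, IFI44L, IFIT1, OAS1 and OASL, and the spread there comes from the resistant libraries alone, with the lone control assumed to vary like them. Omitting control replicate 2 put the members' median at -0.46, and omitting control replicate 1 put it at -0.087. RLE factors, library totals and control replicate 1 halved gave 0 called members and medians from -0.27 to -0.24.

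The sign of 12 members turned with 1 library left out. Their log2 fold changes ranged from -0.56 to 0.072 for IFI27, -0.26 to 0.034 for IFIH1, -0.91 to 0.026 for IFIT2, -0.97 to 0.017 for IFIT3, -0.14 to 0.55 for IFITM1, -0.19 to 0.037 for IFITM3, -0.27 to 0.49 for IRF9, -1.24 to 0.31 for RSAD2, -0.21 to 0.37 for USP18, -0.37 to 0.057 for PARP9, -0.11 to 0.16 for PARP14 and -0.44 to 0.17 for TRIM22. No sign turned under the other alternatives.

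The replicate numbers were not taken as pairs, and the deviations of same-numbered libraries correlated at -0.10 over all genes tested. That value cannot show whether the libraries were prepared in pairs. With the replicate block 33 genes were called higher and 31 lower, and 0 members.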
